A study of Mus musculus with 9 samples.

Results

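The mRNA decay adaptors of the BTG/TOB and ZFP36 families were examined in Eµ-Myc lymphoma cells after 2 h with a BET bromodomain inhibitor. They are 8 genes, Btg1, Btg2, Btg3, Tob1, Tob2, Zfp36, Zfp36l1 and Zfp36l2, taken by symbol from the 43629 genes of the count table with the GENCODE M21 annotation. All 8 had a row, and all 8 were among the 11002 genes with enough counts to test. The study treated a single B-cell lymphoma clone, 4242, with 2.5 µM RG6146, with 1 µM JQ1 or with DMSO, the solvent, with 3 libraries per group. RG6146 and JQ1 are inhibitors of the BET proteins, which bind acetylated histones and recruit the elongation machinery to promoters and enhancers. In all 9 libraries the cells express Myc from a transgene under the enhancer of the immunoglobulin heavy chain locus (Eµ), which is active in B lymphoid cells, so no group is free of the transgene. Libraries of a single clone measure the spread between replicates of that clone and say nothing of other lymphomas.

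Both families bring the CCR4-NOT deadenylase to mRNA, which shortens the poly(A) tail and so starts decay. BTG and TOB proteins share an N-terminal domain that binds the CAF1 deadenylases CNOT7 and CNOT8, and they reach the tail through the poly(A)-binding protein PABPC1. ZFP36 proteins bind AU-rich elements, with UAUUUAU as their core, through a pair of CCCH zinc fingers and contact the CNOT1 scaffold. In lymphocytes BTG1 and BTG2 are known for holding T cells in quiescence, and the human genes are often mutated in B-cell lymphoma. ZFP36L1 and ZFP36L2 are known for restraining the cell cycle in developing mouse B cells.

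Libraries held 3947240 to 4609612 gene counts with RG6146, 3964732 to 5031717 with JQ1 and 3410161 to 5003725 with DMSO, of which 1579 to 3271 per library fell on the 8 adaptor genes. All 10 markers of B cells were tested, and their summed level was 615 to 677 CPM with RG6146, 621 to 633 CPM with JQ1 and 962 to 1040.2 CPM with DMSO (CPM are counts relative to the library size, here scaled by TMM). Of 10 markers of T and NK cells only Cd2 had enough counts to test, and Ncr1 was at 0 in all 9 libraries. The sum of 13 myeloid markers, of which 10 were tested, lay between 90.8 and 133 CPM with RG6146, between 60.1 and 299.9 CPM with JQ1 and between 160.1 and 763 CPM with DMSO, highest in DMSO replicate 2 and, among treated libraries, in JQ1 replicate 2. The 6 erythroid markers, none of them tested, summed to at most 14.8 CPM in any library. Of 8 stromal and endothelial markers 2 were tested, Vim and Pecam1, and Dcn was at 0. The sums were 103 to 114 CPM with RG6146, 102 to 106 CPM with JQ1 and 124 to 139 CPM with DMSO. Vim made up most of them, at 92.6 to 104.9 CPM over the 9 libraries. Pecam1 had 6.33 to 10.95 CPM with RG6146, 4.97 to 9.996 CPM with JQ1 and 24.9 to 32.7 CPM with DMSO. The others had at most 3 counts in any library. The part of these markers in the results was not tested, but without DMSO replicate 2 and JQ1 replicate 2 the counts of adaptor genes called below were 5 higher and 0 lower with either inhibitor.

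Against DMSO, 5 of the 8 adaptor genes were higher with RG6146 and none was lower (edgeR quasi-likelihood test at an adjusted p under 0.05, by the Benjamini-Hochberg method across the whole table). Among all tested genes 26% were called with RG6146, 12.5% higher and 13.5% lower. The 5 were Tob1, Btg1, Zfp36l2, Btg2 and Tob2, in order of their fold changes. With JQ1, set against the same DMSO libraries, the test called 5 higher and 0 lower, where 28.9% of all tested genes were called, 13.6% higher and 15.4% lower. These were Tob1, Btg1, Zfp36l2, Btg2 and Tob2. Btg3, Zfp36 and Zfp36l1 were not called with either inhibitor. The median log2 fold change of the 8 was 0.53 with RG6146 and 0.53 with JQ1, beside 0.01 and 0.00 over all tested genes. Both medians rest on the same 3 DMSO libraries. With TMM 48.0% of all calls were higher with RG6146 and 47.0% with JQ1, against 29.7% with RG6146 and 27.2% with JQ1 when libraries were scaled by size alone, and the adaptor genes then gave 5 higher and 0 lower with RG6146 and 5 higher and 1 lower with JQ1. In bulk RNA fewer cells of a type and less RNA per cell cannot be told apart.

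**Figure D1:**
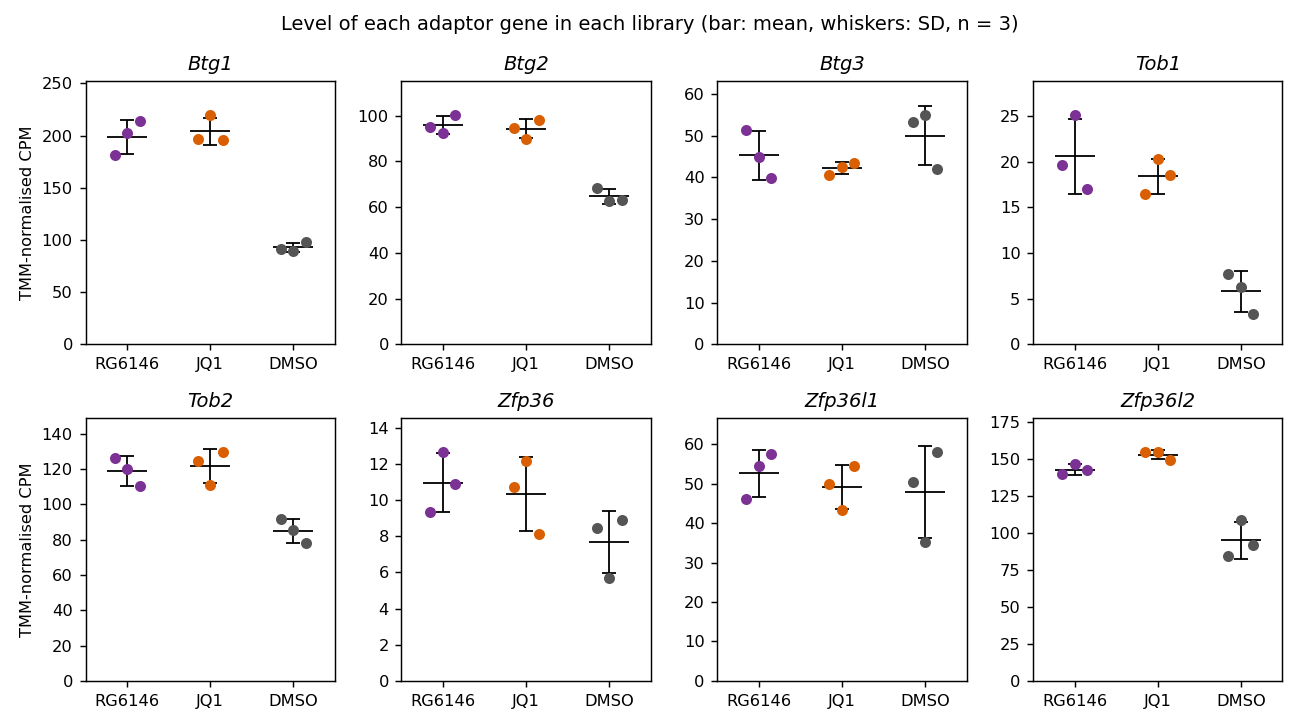
Level of each adaptor gene in each library, in TMM-normalised CPM, for RG6146, JQ1 and DMSO from left to right, with the mean as a bar and the SD of 3 libraries as whiskers. For Btg1, Btg2, Tob1, Tob2 and Zfp36l2 all 6 inhibitor libraries lie above all 3 DMSO libraries.

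Btg1, an antiproliferative factor that binds the CAF1 deadenylases, lies on chromosome 10 (96617006 to 96622809 of mm10, plus strand, Ensembl gene ENSMUSG00000036478). Its level was 181, 202 and 214 CPM in the 3 RG6146 libraries, 197, 219 and 196 CPM in the 3 JQ1 libraries and 91.0, 89.8 and 97.8 CPM in the 3 DMSO libraries. The lowest inhibitor library was far above the highest DMSO library, and the 2 inhibitors overlapped. Btg1 averaged 199 ± 16.5 CPM with RG6146, 204 ± 13.4 CPM with JQ1 and 92.9 ± 4.30 CPM with DMSO (SD, n = 3 each). Its log2 fold change against DMSO was 1.10 ± 0.08 with RG6146 (SE, 95% interval 0.92 to 1.28, adjusted p = 4.69e-08, edgeR) and 1.13 ± 0.08 with JQ1 (0.96 to 1.31, adjusted p = 2.93e-08). In folds these are 2.14 with RG6146 and 2.20 with JQ1. Of all tested genes 92.1% had a smaller log2 fold change in size with RG6146, and 92.3% with JQ1. The related sequences Btg1-ps1 and Btg1-ps2 had at most 0 and 1 counts in any library.

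Btg2, a relative of Btg1 known as a p53-inducible immediate early gene, lies on chromosome 1 (134075170 to 134079120, minus strand, ENSMUSG00000020423). It measured 95.1, 92.6 and 100.2 CPM with RG6146, 94.5, 90.0 and 98.3 CPM with JQ1 and 68.3, 62.5 and 63.3 CPM with DMSO. The 6 inhibitor libraries again stood above the 3 DMSO libraries without overlap. Its log2 fold change was 0.57 ± 0.08 with RG6146 (95% interval 0.39 to 0.74, adjusted p = 7.6e-05, edgeR) and 0.54 ± 0.08 with JQ1 (0.36 to 0.72, adjusted p = 0.000105), under that of Btg1 in both comparisons with intervals that do not meet. Btg3, the third BTG gene (chromosome 16, 78332637 to 78377192, minus strand, ENSMUSG00000022863), had 51.3, 44.8 and 39.8 CPM with RG6146, 40.6, 42.6 and 43.4 CPM with JQ1 and 53.2, 54.9 and 41.96 CPM with DMSO. Its groups overlapped, and DMSO replicate 3 lay among the inhibitor libraries. The log2 fold change of Btg3 was -0.14 ± 0.12 with RG6146 (-0.40 to 0.11, adjusted p = 0.418) and -0.25 ± 0.12 with JQ1 (-0.50 to 0.01, adjusted p = 0.141). Without DMSO replicate 3 the JQ1 value was -0.36 and passed the test (adjusted p = 0.0386), as it did with scaling by library size alone (-0.38, adjusted p = 0.0252), the lowest adjusted p of its 22 alternatives. The other 20 did not call it. Btg3 shares 27138 bases with Cxadr on the opposite strand, which had 12 to 35 counts per library and a log2 fold change of 0.54 with RG6146 (adjusted p = 0.163) and 0.88 with JQ1 (adjusted p = 0.0196). The strand setting of the counting is not given in the sources used here, so tags of such a pair may not be separated. Gm49590, which shares 2713 bases with Btg3 on the same strand, had no row in the count table.

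The promoters of 3 genes are printed because Btg1 and Tob1 had the largest rises and Btg2 holds a complete cyclic AMP response element (CRE). Each is the 250 bases before the RefSeq gene start on GRCm38.p6, in the direction of transcription, for Btg1 at chr10:96616751-96617000 on the plus strand, for Tob1 at chr11:94211204-94211453 on the plus strand and for Btg2 at chr1:134079156-134079405 on the minus strand. Capitals mark matches on either strand to the TATA box TATAAA, the short CRE core TGACG, the full CRE TGACGTCA, the CCAAT box CCAAT, the E-box CACGTG, the AP-1 site TGANTCA and the CArG box, the site of serum response factor.
Btg1: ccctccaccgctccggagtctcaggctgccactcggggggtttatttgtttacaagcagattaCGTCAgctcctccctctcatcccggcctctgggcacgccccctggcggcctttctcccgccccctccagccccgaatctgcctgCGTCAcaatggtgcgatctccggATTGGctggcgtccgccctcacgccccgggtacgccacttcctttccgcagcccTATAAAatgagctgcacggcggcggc
Tob1: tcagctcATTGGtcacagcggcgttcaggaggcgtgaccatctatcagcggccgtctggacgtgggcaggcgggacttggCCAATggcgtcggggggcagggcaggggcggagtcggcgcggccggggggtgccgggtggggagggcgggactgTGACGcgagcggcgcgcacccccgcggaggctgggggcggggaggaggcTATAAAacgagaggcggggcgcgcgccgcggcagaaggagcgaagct
Btg2: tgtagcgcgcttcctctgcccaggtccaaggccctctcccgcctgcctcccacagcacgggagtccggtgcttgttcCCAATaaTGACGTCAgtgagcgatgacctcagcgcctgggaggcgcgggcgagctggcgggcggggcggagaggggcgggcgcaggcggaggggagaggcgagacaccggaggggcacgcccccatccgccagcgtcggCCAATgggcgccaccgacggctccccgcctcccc
The Btg1 window holds a TATA box 26 to 21 bases before the start, 2 CRE cores and a CCAAT box, and the Tob1 window a TATA box 47 to 42 bases before the start, a CRE core and 2 CCAAT boxes. The Btg2 window holds a full CRE 166 to 159 bases before the start, which contains 2 overlapping cores, and 2 CCAAT boxes, with no TATA box. Zfp36l1 was the third of the 7 matched genes with a TATA box (29 to 24 bases before the start, overlapping a CCAAT box), and it also had an AP-1 site. The Zfp36 window had a CArG box 58 to 49 bases before the start, the 2 Btg3 windows had a CCAAT box each, and the Tob2 window had none of these letters. The E-box, a motif bound by MYC, was found in none of the windows. Zfp36l2 was not among the matched genes. Of 32851 windows of the same length, 12.4% held the TATA box, 17.8% the CRE core, 1.55% the full CRE, 33.8% the CCAAT box, 6.02% the E-box, 6.75% the AP-1 site and 1.47% the CArG box. These matches describe the letters of the windows and no binding was measured.

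The TOB genes moved in the same direction by unlike amounts. Tob1, an antiproliferative protein that binds both the CAF1 deadenylases and the poly(A)-binding protein, lies on chromosome 11 (94211454 to 94215495, plus strand, ENSMUSG00000037573). It had the largest fold change of the 8 and one of the lowest levels, at 19.6, 25.1 and 17.0 CPM with RG6146, 16.4, 20.2 and 18.6 CPM with JQ1 and 7.71, 6.25 and 3.36 CPM with DMSO. These values rest on 86, 99 and 75 counts with RG6146, 78, 85 and 71 with JQ1 and 41, 22 and 14 with DMSO. The groups did not overlap, though the DMSO libraries spread widely around their mean of 5.77 ± 2.22 CPM. The log2 fold change of Tob1 was 1.81 ± 0.24 with RG6146 (95% interval 1.31 to 2.31, adjusted p = 3.24e-05, edgeR) and 1.65 ± 0.24 with JQ1 (1.145 to 2.16, adjusted p = 7.43e-05). That is 3.51-fold with RG6146 and 3.14-fold with JQ1. By log2 fold change Tob1 stood at place 91 from the top of 11002 genes with RG6146 and at place 122 with JQ1.

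Tob2, its closest relative, lies on chromosome 15 (81848272 to 81858796, minus strand, ENSMUSG00000048546). It measured 127, 120.2 and 110.2 CPM with RG6146, 125, 111 and 129.7 CPM with JQ1 and 91.6, 85.6 and 77.9 CPM with DMSO. The inhibitor libraries lay above the DMSO libraries without overlap, by a smaller margin than for Tob1. Its log2 fold change was 0.48 ± 0.09 with RG6146 (0.29 to 0.68, adjusted p = 0.000698, edgeR) and 0.52 ± 0.09 with JQ1 (0.33 to 0.71, adjusted p = 0.000355), and its intervals do not meet those of Tob1. Summed over the 5 BTG and TOB genes, the level was 480 ± 5.67 CPM with RG6146, 481 ± 6.69 CPM with JQ1 and 298 ± 13.8 CPM with DMSO (SD, n = 3 each).

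ZFP36 is known to bind AU-rich elements in its own transcript, so the AU-rich core was searched in the sense strand of each gene's longest annotated 3′ UTR. The sites below are shown because the 3 ZFP36 genes carry more of them than most genes do. Each run has 23 bases of mm10 in the direction of the transcript, written with T for U, and the capitals mark TATTTAT. They lie at chr7:28376969-28376991, chr7:28376954-28376976 and chr7:28376929-28376951 for Zfp36, chr12:80108425-80108447 for Zfp36l1, chr17:84184917-84184939 for Zfp36l2, chr1:134077252-134077274 for Btg2 and chr15:81849863-81849885 for Tob2, all on the minus strand.
Zfp36 site 1: gggcccttTATTTATgacgactt
Zfp36 site 2: gacgacttTATTTATtgtattaa
Zfp36 site 3: ttttatagTATTTATatatattg
Zfp36l1 site 1: tcaaaacgTATTTATtgccaaac
Zfp36l2 site 1: atttaactTATTTATtatcttgt
Btg2: tgaagagcTATTTATacatgttt
Tob2: cacctgctTATTTATgtacgagg
Zfp36 had 3 such sites in 774 bases of 3′ UTR, Zfp36l1 had 3 in 1835 bases and Zfp36l2 had 3 in 1822 bases. Btg2 had 1 in 2199 bases and Tob2 had 1 in 2457 bases, while Btg1, Btg3 and Tob1 had 0 in 4166, 2554 and 767 bases. Among 9115 tested coding genes with a 3′ UTR, 30.4% had at least 1 site and 3.83% had 3 or more, and among the 5561 of these with a length within that of the 8 genes, 35.98% and 3.63%. Of the 5 called genes Tob1 and Btg1 had none, Btg2 and Tob2 had 1 each and Zfp36l2 had 3. Of the 3 genes not called Btg3 had none, and Zfp36 and Zfp36l1 had 3 each. Of the 349 genes with 3 or more sites, 20.9% were called higher and 17.2% lower with RG6146, and 20.3% higher and 20.9% lower with JQ1. Of the 6346 genes with none, 12.2% were called higher and 13.8% lower with RG6146, and 14.02% higher and 15.6% lower with JQ1. The median 3′ UTR was 3439 bases in the first set and 1012 bases in the second. Calls were not compared at matched length, so the part of length in these shares was not tested.

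Zfp36l2, which destabilises AU-rich transcripts, was the ZFP36 gene with the highest level (chromosome 17, 84183931 to 84187947, minus strand, ENSMUSG00000045817). It measured 139.6, 147 and 142 CPM with RG6146, 155, 154 and 149 CPM with JQ1 and 84.4, 109 and 91.6 CPM with DMSO. The inhibitor libraries did not overlap with DMSO, where replicate 2 was the highest. The log2 fold change of Zfp36l2 was 0.59 ± 0.09 with RG6146 (95% interval 0.40 to 0.78, adjusted p = 9.79e-05, edgeR) and 0.69 ± 0.09 with JQ1 (0.50 to 0.88, adjusted p = 1.77e-05). Gm49476, Gm44710 and AC132455.1 overlap Tob2, Zfp36 and Zfp36l2 in that order on the opposite strand, and they had no row in the count table.

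Zfp36l1, its closest relative, lies on chromosome 12 (80107754 to 80113013, minus strand, ENSMUSG00000021127). It had 46.1, 54.4 and 57.5 CPM with RG6146, 49.9, 43.3 and 54.4 CPM with JQ1 and 50.4, 35.3 and 58.0 CPM with DMSO, so that the highest and the lowest of the 9 values were both DMSO libraries. Its log2 fold change was 0.13 ± 0.16 with RG6146 (95% interval -0.22 to 0.48, adjusted p = 0.603, edgeR) and 0.03 ± 0.16 with JQ1 (-0.32 to 0.39, adjusted p = 0.901). The interval with JQ1 lies below that of Zfp36l2, while with RG6146 the 2 intervals meet. Differences in fold change between genes were not tested. DMSO replicate 2, the library with the most myeloid marker counts, was the lowest of the 9 for Zfp36l1 and the highest of the DMSO libraries for Zfp36l2, and the part of those markers was not tested. Without that library the log2 fold change of Zfp36l1 was -0.04 with RG6146 and -0.14 with JQ1, not called in either case. The long non-coding RNA gene Gm26669 covers 4967 bases of Zfp36l1 on the opposite strand. It had 30.8 ± 4.57 CPM with RG6146, 29.4 ± 2.92 CPM with JQ1 and 29.7 ± 4.19 CPM with DMSO, and tags of the pair may not be separated. The pseudogene Zfp36l1-ps had 0 counts.

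Zfp36, which encodes tristetraprolin, the founding member of the family and a brake on cytokine transcripts such as that of TNF, lies on chromosome 7 (28376784 to 28380253, minus strand, ENSMUSG00000044786). Its levels were low, at 9.35, 12.7 and 10.9 CPM with RG6146, 10.7, 12.1 and 8.10 CPM with JQ1 and 8.46, 5.69 and 8.87 CPM with DMSO, from 20 to 51 counts a library. The RG6146 libraries lay above the DMSO libraries by a narrow margin, and JQ1 replicate 3 lay below DMSO replicates 1 and 3. Its log2 fold change was 0.50 ± 0.22 with RG6146 (95% interval 0.03 to 0.96, unadjusted p = 0.0389 and adjusted p = 0.113, edgeR) and 0.42 ± 0.22 with JQ1 (-0.05 to 0.89, adjusted p = 0.177). Without DMSO replicate 2, the lowest of the 9 libraries, it was 0.34 with RG6146 and 0.26 with JQ1, and without JQ1 replicate 2 as well it was 0.34 with RG6146 and 0.14 with JQ1, none of them called. Summed over the 3 ZFP36 genes, the level was 206 ± 10.04 CPM with RG6146, 212 ± 2.73 CPM with JQ1 and 151 ± 7.60 CPM with DMSO (SD, n = 3 each).

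**Figure D2:**
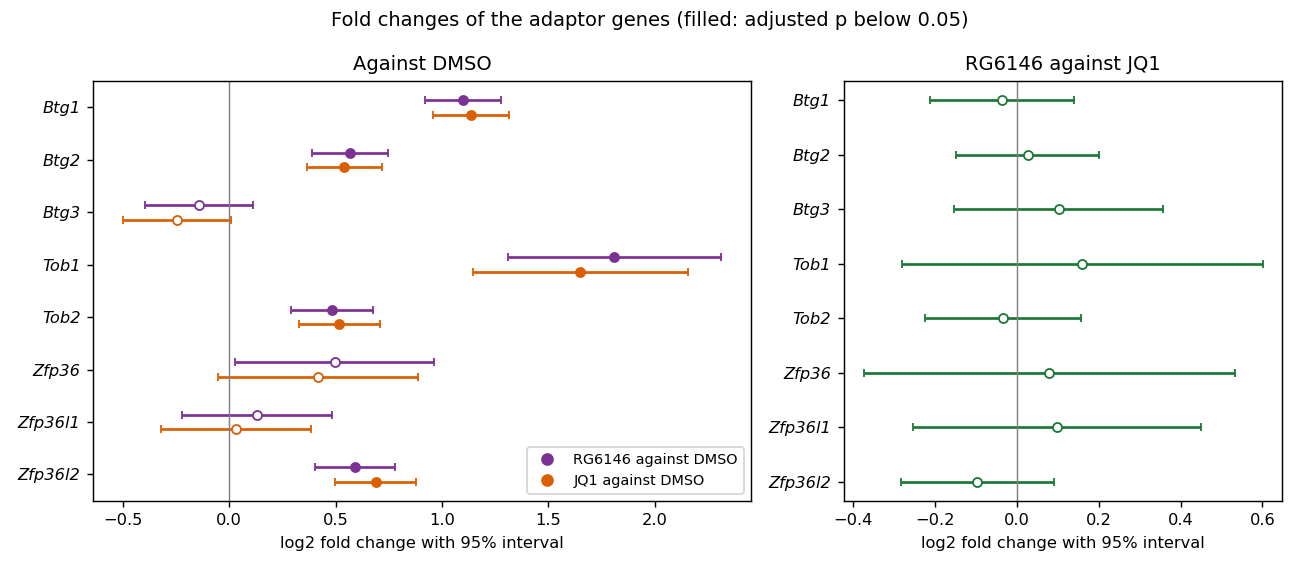
Log2 fold change of each adaptor gene with its 95% interval, on the left for RG6146 and JQ1 against DMSO and on the right for RG6146 against JQ1, with filled points at an adjusted p below 0.05. Tob1 and Btg1 lie farthest to the right against DMSO (1.81 and 1.10 with RG6146), and every interval of RG6146 against JQ1 contains 0.

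Groups that did not overlap were counted as well. With RG6146 all 3 libraries lay above all 3 DMSO libraries for 6 of the 8 genes, the 5 called genes and Zfp36, where 20.1% of all tested genes did so. With JQ1 this held for 5 of the 8, where 20.6% of all tested genes did so. No adaptor gene lay wholly below DMSO, beside 20.9% of all tested genes with RG6146 and 22% with JQ1.

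The calls of Btg1 and Tob1 held in all 22 alternative analyses. The calls of Btg2 and Tob2 with either inhibitor, and of Zfp36l2 with RG6146, were lost when libraries were scaled by the ERCC spike-ins (adjusted p from 0.0778 to 0.173), which called 2 adaptor genes with RG6146 and 3 with JQ1. Of all 11002 tested genes that scaling called 1082 with RG6146 and 1196 with JQ1. The log2 fold changes under that scaling were 0.61 with RG6146 and 0.54 with JQ1 for Btg2, 0.51 with RG6146 and 0.52 with JQ1 for Tob2, and 0.61 with RG6146 for Zfp36l2. With ERCC scaling and the replicate number as a block, 5 adaptor genes were called higher with each inhibitor, these 3 among them. A test against a 1.5-fold change called only Btg1 and Tob1.

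**Figure D3:**
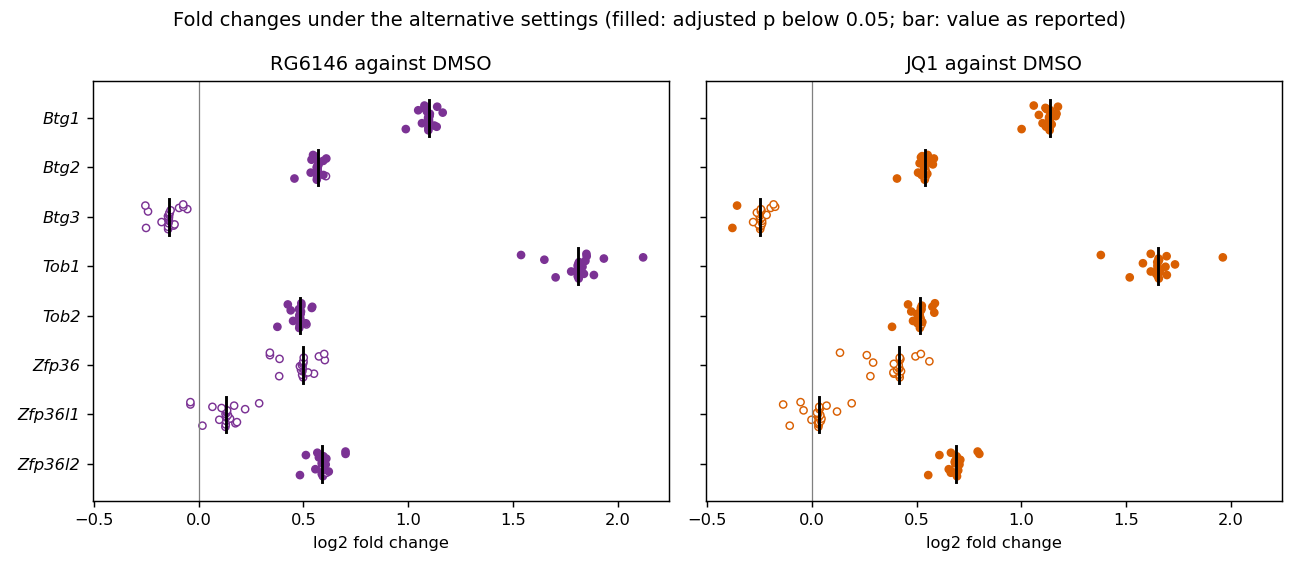
Log2 fold changes of the adaptor genes under the alternative analyses, RG6146 against DMSO on the left and JQ1 against DMSO on the right, with filled points at an adjusted p below 0.05 and a bar at the reported value. Values of Tob1 run from 1.54 to 2.12 with RG6146 and from 1.38 to 1.96 with JQ1, and those of Zfp36l1 lie on both sides of 0.

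The order of the 8 genes by level was not the same with inhibitor and with DMSO. A 3′ tag library gives about a single tag per transcript, so levels of different genes were set side by side in CPM without division by length. With RG6146 the order by mean was Btg1, Zfp36l2, Tob2, Btg2, Zfp36l1, Btg3, Tob1 and Zfp36, and only Zfp36l1 and Btg3 overlapped with a neighbour. With JQ1 the order was the same, and again only Zfp36l1 and Btg3 overlapped. With DMSO the first places went to Zfp36l2 (94.97 ± 12.6 CPM), Btg1 (92.9 ± 4.30 CPM) and Tob2 (85.0 ± 6.85 CPM), each of which overlapped with its neighbour, followed by Btg2, by Btg3 and Zfp36l1, which overlapped, and by Zfp36 and Tob1, which also overlapped. Of the counts on the 8 genes Btg1 took 29.0% with RG6146, 29.4% with JQ1 and 20.7% with DMSO, while Zfp36l2 took 20.8%, 22.1% and 21.2% in the same groups. All 8 together had 686 ± 15.6 CPM with RG6146, 693 ± 4.58 CPM with JQ1 and 449 ± 6.16 CPM with DMSO. The relatives Btg4 and Zfp36l3 had 0 counts in all 9 libraries.

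**Figure D4:**
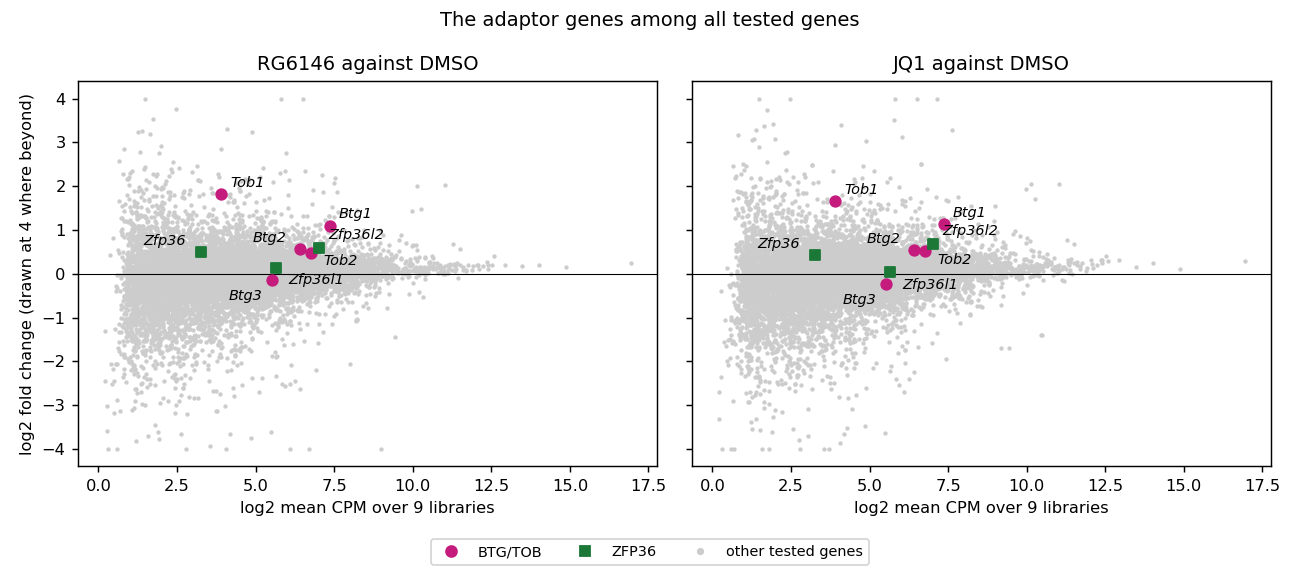
Log2 fold change against log2 mean CPM over 9 libraries for all 11002 tested genes in grey, with the BTG and TOB genes as circles and the ZFP36 genes as squares, RG6146 on the left and JQ1 on the right. Tob1 stands near the upper edge among genes of its level, Btg1 does so among more abundant genes, and Btg3 and Zfp36l1 lie within the grey band around 0.

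Set directly against each other, RG6146 and JQ1 gave no called difference in any of the 8 genes. The doses differ, 2.5 µM and 1 µM, so the values compare these treatments and not the compounds at a matched dose. Over all genes 0.00909% were called, a single gene, Gm12693 (log2 fold change 1.52, adjusted p = 0.0321, edgeR), and none of the 8 had an unadjusted p below 0.05. DESeq2 and limma-voom also called 0 of the 8. The log2 fold change of RG6146 against JQ1 was -0.04 for Btg1 (95% interval -0.21 to 0.14), 0.03 for Btg2 (-0.15 to 0.20) and -0.03 for Tob2 (-0.22 to 0.16). It was less closely bounded for the low genes Tob1 (0.16, interval -0.28 to 0.60) and Zfp36 (0.08, -0.37 to 0.53). For Btg3 it was 0.10 (-0.15 to 0.36) and for Zfp36l1 0.10 (-0.25 to 0.45). Zfp36l2 was the only gene of the 8 whose libraries did not overlap between the inhibitors, lower in all 3 RG6146 libraries (143 ± 3.50 CPM) than in all 3 JQ1 libraries (153 ± 3.05 CPM), with a log2 fold change of -0.10 ± 0.09 (-0.28 to 0.09, adjusted p = 0.999). Among all tested genes 9.93% did not overlap between the inhibitors, 4.54% with RG6146 below and 5.39% with RG6146 above. These intervals leave room for differences of the sizes they span and do not show that the treatments act alike.

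The genes whose levels ran closest to a called adaptor gene were found by the root mean square difference of log2(CPM + 0.5), centred on DMSO, over the 9 libraries and among 7404 candidates. Closest to Btg1 were Wsb1 (0.0903), 2410002F23Rik (0.1096) and Acp4 (0.112), and closest to Btg2 were Amd1 (0.0429), which encodes the polyamine synthesis enzyme AMD1, Nxf1 (0.0469), the mRNA export receptor, and Ggnbp2 (0.0507). For Tob1 they included the linker histone gene H1f0 (0.202) and Snx14 (0.264), and for Tob2 the superoxide dismutase gene Sod1 (0.0608), Ndel1 (0.0665) and Arid4b (0.0674). For Zfp36l2 they were Klhl21 (0.0738), Synrg (0.0814) and Selenos (0.0857). Tob1 had the lowest counts of these 5 genes and the largest differences.

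Genes of the deadenylase list were called in both directions, 3 of 14 with each inhibitor. The share called over all tested genes was 26% with RG6146 and 28.9% with JQ1. Of the 14 tested genes of CCR4-NOT, PAN2-PAN3 and PARN, 1 rose and 2 fell with RG6146, and 2 rose and 1 fell with JQ1 (edgeR, adjusted p below 0.05), with medians of -0.03 and -0.06 on the log2 scale. Cnot4, which encodes a ubiquitin ligase and not a deadenylase, rose with RG6146 (0.58, adjusted p = 0.000949) and with JQ1 (0.34, adjusted p = 0.0333). Cnot6l, a CCR4-type catalytic subunit, fell with RG6146 (-0.33, adjusted p = 0.00817) and with JQ1 (-0.36, adjusted p = 0.0049). Its paralogue Cnot6 fell with RG6146 (-0.34, adjusted p = 0.00776) and had -0.23 with JQ1 (adjusted p = 0.063). Cnot3, a scaffold subunit, had 0.27 with RG6146 (adjusted p = 0.0684) and rose with JQ1 (0.34, adjusted p = 0.0185). With scaling by library size, which moved the median of all genes to -0.10 with RG6146 and -0.13 with JQ1, the JQ1 counts of this list were 0 higher and 3 lower. Without DMSO replicate 2 and JQ1 replicate 2 they were 2 higher and 2 lower with RG6146 and 1 higher and 1 lower with JQ1.

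Of 6 poly(A)-binding proteins and their partners, 3 rose and 1 fell with RG6146, and 0 rose and 1 fell with JQ1. Among all tested genes 26% were called with RG6146 and 28.9% with JQ1. With library size scaling the list gave 0 higher and 2 lower with RG6146. Without DMSO replicate 2 and JQ1 replicate 2, RG6146 gave 1 higher and 0 lower. With JQ1, DESeq2 gave 2 higher and 1 lower, and the replicate block 1 higher and 1 lower. Set directly against each other, the inhibitors gave 0 called genes in this list. Pabpc1, the cytoplasmic poly(A)-binding protein that BTG and TOB proteins contact, rose with RG6146 (0.40, adjusted p = 0.0406), and its value with JQ1 was 0.29 (adjusted p = 0.108). Paip2, an inhibitor of PABPC1, rose with RG6146 (0.39, adjusted p = 0.00865) and had 0.24 with JQ1 (adjusted p = 0.0934). Pabpc4, a second cytoplasmic form, rose with RG6146 (0.35, adjusted p = 0.0159) and had 0.26 with JQ1 (adjusted p = 0.0572). Pabpn1, the nuclear form, fell with RG6146 (-0.35, adjusted p = 0.0147) and with JQ1 (-0.51, adjusted p = 0.000804).

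Of 19 genes of decapping and 5′-to-3′ decay, 1 rose and 2 fell with RG6146, and 2 rose and 2 fell with JQ1. The shares called over all tested genes were 26% with RG6146 and 28.9% with JQ1. Lsm14b, an RNA-granule protein, rose by 0.61 with either inhibitor (adjusted p = 0.00793 with RG6146 and 0.00728 with JQ1). Xrn1, the cytoplasmic 5′-to-3′ exonuclease, fell with RG6146 (-0.34, adjusted p = 0.0173) and with JQ1 (-0.43, adjusted p = 0.00304), and Eif4enif1, which binds the cap factor eIF4E, fell with RG6146 (-0.40, adjusted p = 0.019) and with JQ1 (-0.50, adjusted p = 0.00408). Edc4, a decapping scaffold, had 0.31 with RG6146 (adjusted p = 0.118) and rose with JQ1 (0.47, adjusted p = 0.0167). DESeq2 called 0 of this list with RG6146 and 2, both lower, with JQ1, beside 1902 and 2147 of all 11002 tested genes. Without DMSO replicate 2 and JQ1 replicate 2 the list gave 1 higher and 0 lower with RG6146 and 1 higher and 1 lower with JQ1.

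Among genes of the RNA exosome and SKI complex, which degrade deadenylated RNA from the 3′ end, the called genes all fell, and no SKI gene was called. Of 14 tested, 0 rose and 5 fell with RG6146 and 0 rose and 5 fell with JQ1, with medians of -0.31 and -0.24, beside 13.5% and 15.4% of all tested genes called lower. Exosc10, a nuclear catalytic subunit, measured 31.6 ± 3.11 CPM with RG6146, 31.8 ± 3.86 CPM with JQ1 and 52.5 ± 1.64 CPM with DMSO (log2 fold change -0.73 with RG6146, adjusted p = 0.000121, and -0.72 with JQ1, adjusted p = 0.000126). Dis3l, a cytoplasmic exonuclease, fell with RG6146 (-0.94, adjusted p = 0.00741) and with JQ1 (-0.89, adjusted p = 0.00899). The core subunits Exosc7 (-0.38 with RG6146 and -0.46 with JQ1) and Exosc8 (-0.35 with RG6146 and -0.35 with JQ1) also fell. The SKI genes Skiv2l (0.05 with RG6146 and 0.04 with JQ1), Ttc37 (-0.05 and -0.23) and Wdr61 (0.08 and 0.15) were not called. ERCC scaling called 1 gene of this list with either inhibitor, beside 1082 of all 11002 tested genes with RG6146 and 1196 with JQ1. ERCC scaling with the replicate block called 5 genes of the list with each, and DESeq2 called 2 with RG6146 and 3 with JQ1. All of these calls in the list were lower. Without DMSO replicate 2 and JQ1 replicate 2 it was 5 lower with RG6146 and 2 lower with JQ1.

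**Figure D5:**
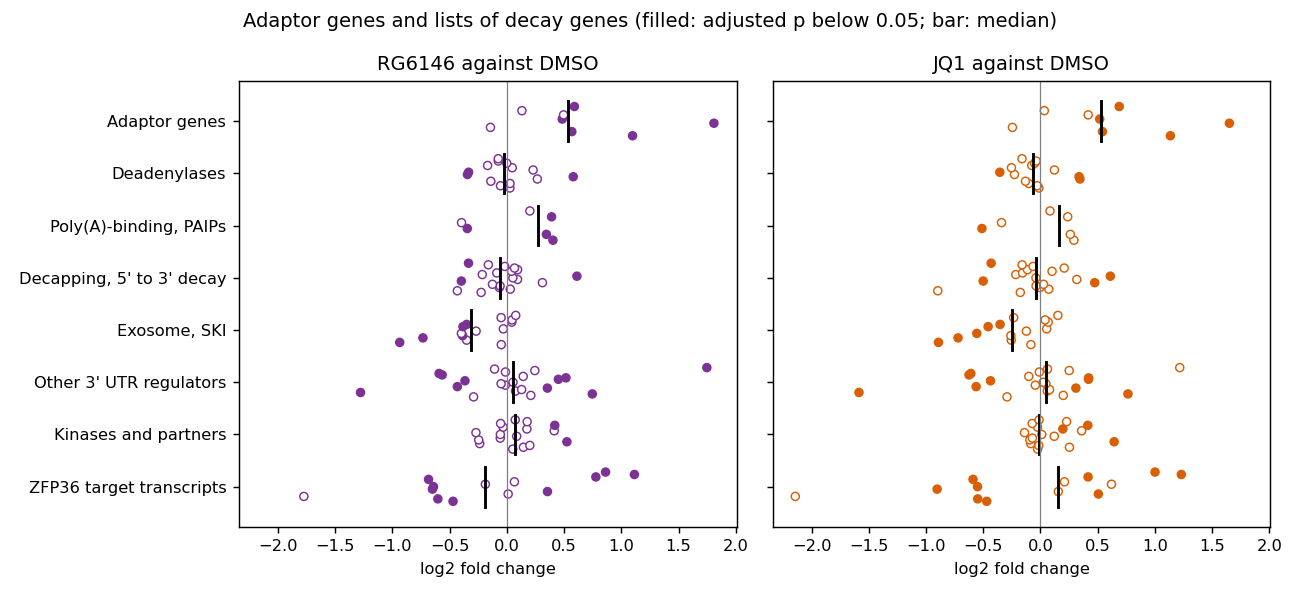
Log2 fold changes of the adaptor genes and of 7 lists of decay genes, with RG6146 against DMSO on the left and JQ1 against DMSO on the right, filled points at an adjusted p below 0.05 and a bar at the median. The median of the adaptor genes stands at 0.53 in both panels, that of the exosome and SKI genes at -0.31 and -0.24.

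Of 21 tested genes for other regulators of decay that bind 3′ UTRs or act there, 5 rose and 5 fell with RG6146, and 4 rose and 5 fell with JQ1. Called genes made up 26% of all tested genes with RG6146 and 28.9% with JQ1. ERCC scaling gave 2 higher and 1 lower with RG6146 and 1 higher and 1 lower with JQ1. Of all 11002 tested genes it called 1082 with RG6146 and 1196 with JQ1. With the replicate block added, the list gave 5 higher and 5 lower with RG6146 and 3 higher and 5 lower with JQ1. Library size scaling gave 4 higher and 5 lower with RG6146 and 2 higher and 6 lower with JQ1. Hnrnpd, whose product AUF1 binds AU-rich elements as the ZFP36 proteins do, measured 260 ± 15.03 CPM with RG6146, 238 ± 11.6 CPM with JQ1 and 351 ± 28.8 CPM with DMSO (log2 fold change -0.43 with RG6146, adjusted p = 0.000552, and -0.56 with JQ1, adjusted p = 4.05e-05). Tial1, an AU-rich element binding protein of stress granules, fell with RG6146 (-0.57, adjusted p = 0.00138) and with JQ1 (-0.62, adjusted p = 0.000549). Tnrc6a, the scaffold that links Argonaute to CCR4-NOT, fell with RG6146 (-0.59, adjusted p = 1.14e-05) and with JQ1 (-0.61, adjusted p = 7.54e-06). Rc3h1, which encodes Roquin-1, rose with RG6146 (0.45, adjusted p = 0.000644) and with JQ1 (0.42, adjusted p = 0.00105).

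Of 17 tested genes for kinases, phosphatase subunits and partners that act on the adaptor proteins, 2 rose with RG6146 and 3 with JQ1, and 0 fell. Over all tested genes 12.5% were called higher with RG6146 and 13.6% with JQ1, and 13.5% and 15.4% were called lower. Mapkapk2, whose kinase MK2 phosphorylates ZFP36 and lowers its activity, measured 105 ± 10.1 CPM with RG6146, 114 ± 11.7 CPM with JQ1 and 73.3 ± 5.996 CPM with DMSO (log2 fold change 0.52 with RG6146, adjusted p = 0.000771, and 0.64 with JQ1, adjusted p = 0.000108). Ywhag, a 14-3-3 protein of the kind that binds phosphorylated ZFP36, rose with RG6146 (0.42, adjusted p = 0.000941) and with JQ1 (0.41, adjusted p = 0.000937). Its relative Ywhab had 0.18 with RG6146 (adjusted p = 0.0784) and rose with JQ1 (0.20, adjusted p = 0.0463). ERCC scaling called 0 genes of the deadenylase, poly(A), decapping and kinase lists with either inhibitor. Of all 11002 tested genes it called 1082 with RG6146 and 1196 with JQ1. With the replicate block added it called 2 deadenylase genes with RG6146 and 1 with JQ1, 4 poly(A) genes with RG6146 and 1 with JQ1, 2 decapping genes with RG6146 and 4 with JQ1, and 2 kinase list genes with each.

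Of 19 transcripts known as targets of ZFP36 proteins 13 were tested, and 4 rose and 5 fell with RG6146, and 4 rose and 5 fell with JQ1. These counts stand beside 26% of all tested genes called with RG6146 and 28.9% with JQ1. Without DMSO replicate 2 and JQ1 replicate 2 the counts were 3 higher and 4 lower with RG6146 and 2 higher and 6 lower with JQ1. ERCC scaling gave 3 higher and 0 lower with RG6146 and 2 higher and 1 lower with JQ1. Of all 11002 tested genes it called 1082 with RG6146 and 1196 with JQ1. ERCC scaling with the replicate block gave 4 higher and 5 lower with RG6146 and 3 higher and 5 lower with JQ1. The cytokine transcripts Tnf, Il6, Il10 and Csf2 had at most 3, 1, 0 and 0 counts in any library and were not tested. Notch1, the receptor gene linked to these proteins in T cell leukaemia of mice, measured 20.9 ± 2.78 CPM with RG6146, 22.7 ± 0.683 CPM with JQ1 and 9.63 ± 2.18 CPM with DMSO (log2 fold change 1.11 with RG6146, adjusted p = 0.00012, and 1.23 with JQ1, adjusted p = 3.65e-05). Myc rose with RG6146 (0.78, adjusted p = 5.9e-05) and with JQ1 (0.42, adjusted p = 0.00815), and tags of the Myc transgene and of the endogenous gene cannot be told apart. The cyclin gene Ccnd1 fell with RG6146 (-0.60, adjusted p = 2.51e-05) and with JQ1 (-0.55, adjusted p = 5.7e-05). E2f2, a cell cycle transcription factor, fell with RG6146 (-0.64, adjusted p = 9.91e-05) and with JQ1 (-0.55, adjusted p = 0.00036).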

How the data were processed

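The deposited table holds raw counts per gene, not normalised, of 3′ mRNA (QuantSeq) libraries. The submitters' processing notes name HISAT2 2.1.0 with cutadapt 1.7, featureCounts of Subread, FastQC 0.11.5, bcl2fastq 2.17.1.14 and build mm10. The sources used here give neither the annotation release nor the strand setting nor the treatment of reads with several matches, so tags shared by similar copies are uncertain. Neither library sizes nor tests included the 92 ERCC rows. Symbols came from GENCODE M21 for 42462 of 43629 identifiers.

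The counts were tested with edgeR 4.0.16 (R 4.3.3). After filterByExpr with a minimum count of 10, libraries were scaled by TMM, and a robust quasi-likelihood model with group as its only term was fitted to all 9 libraries. Benjamini-Hochberg adjustment ran over 11002 genes, and genes below 0.05 were called with no fold threshold. Log2 fold changes are without a prior count. The SE is the fold change divided by the root of F, and 95% intervals use the model's degrees of freedom. For the median gene and JQ1 the interval extended 0.351 each way. The fit was first checked on simulated data for JQ1 against DMSO. It recovered 9 of 66 changes of 1.5-fold (13.6%), 48 of 65 of 2-fold (73.8%) and 63 of 64 of 4-fold. Of 127 calls 7 were false. Genes not called may therefore hold changes of about 1.5-fold. The simulation held far fewer changed genes than were called here, so its shares may not carry over. All 9 replicate pairs within groups differed beyond sampling noise (chi-square per degree of freedom 6.28 to 15.2), and each library was counted as 1 replicate. The sample titles give a replicate number and do not say whether the replicates are separate cultures.

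Alternatives were DESeq2 1.42.0, limma-voom (limma 3.58.1), other scalings and filters, a replicate block and leaving out libraries. The text names all 8 members, up to 4 genes of each list with the smallest p, and the 3 genes nearest to each called member; 2 genes that this rule names are not reported here. Members and lists were chosen with earlier results of these data known.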

Additional observations from a re-analysis of the deposited data

How the results depend on the processing

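The log2 fold changes of the 8 genes were recomputed under 22 alternatives (21 for Zfp36, which a mean of at least 10 CPM removed). Of 525 values, 491 kept direction and side of the threshold, 11 lost a call, 2 gained one and 21 changed sign, all of these in uncalled values.

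The number of adaptor genes called was 2 with RG6146 and 3 with JQ1 under ERCC scaling, 5 and 5 under ERCC scaling with the replicate block, 2 and 2 under the test against a 1.5-fold change, and 5 with RG6146 and 5 to 6 with JQ1 when 1 library was left out. For RG6146 against JQ1 it was 0 in every alternative. Over all genes, RG6146 against DMSO gave 1902 calls with DESeq2, 1082 with ERCC scaling, 532 against a 1.5-fold change and 2239 to 2970 with 1 library left out. JQ1 against DMSO gave 1196 with ERCC scaling, 599 against a 1.5-fold change and 2492 to 3248 with 1 library left out. With library size scaling the share of higher genes among calls was 29.7% with RG6146 and 27.2% with JQ1, beside 48.0% and 47.0% with TMM. RG6146 against JQ1 gave 17 calls with no count filter, 4 with ERCC scaling, 0 to 2 with 1 library left out, and 0 with genes under 10 CPM dropped, the replicate block, no robust moderation, the 1.5-fold test, limma-voom, only the 2 groups compared, and without DMSO replicate 2 and JQ1 replicate 2. The cause was not tested.

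In gene levels after TMM, replicate numbers did not pair the samples. The 9 same-number pairs had correlations of -0.134 to 0.138, 1 of them over 0.1, and other pairs -0.162 to 0.158. Of 9 libraries 3 correlated best with their own number. The ERCC share of all counts did follow the number, falling from replicate 1 to 3 in each group. It was 1.35%, 1.17% and 0.97% with RG6146, 1.37%, 1.22% and 0.96% with JQ1 and 1.51%, 1.18% and 1.13% with DMSO. With the replicate block 2789 genes were called with RG6146 and 3092 with JQ1, and 5 adaptor genes with each; with ERCC scaling and the block it was 2604 genes with RG6146 and 2829 with JQ1.

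Signs changed as follows. Zfp36l1 with JQ1 was -0.10 when scaled by library size, -0.00097 when genes under 10 CPM were dropped, -0.05 without DMSO replicate 2 and JQ1 replicate 2, and -0.14 to 0.19 with 1 library left out. Zfp36l1 with RG6146 was -0.039 without DMSO replicate 2 and JQ1 replicate 2 and -0.039 to 0.29 with 1 library left out. For RG6146 against JQ1, Btg1 was 0.018 with ERCC scaling, 0.0087 with ERCC scaling and the block, 0.018 without DMSO replicate 2 and JQ1 replicate 2, and -0.090 to 0.026 with 1 library left out. Tob2 was 0.0075 with ERCC scaling and the block, and -0.097 to 0.019 with 1 library left out. Btg2 was -0.0071 without DMSO replicate 2 and JQ1 replicate 2, and -0.0070 to 0.057 with 1 library left out. With 1 library left out Zfp36 was -0.061 to 0.21 and Tob1 -0.0079 to 0.28. Zfp36 and Tob1 rest on 14 to 99 counts a library, which limits their precision.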
